A study of Mus musculus with 30 samples.

Results

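The nuclear genes for subunits of the mitochondrial respiratory chain and ATP synthase were followed in mouse dendritic cells meeting a fungus. Members were the protein-coding genes of the count table whose symbols name a subunit of complex I (Ndufa, Ndufb, Ndufc, Ndufs and Ndufv families), complex II (Sdha to Sdhd), complex III (Uqcr family), complex IV (Cox4 to Cox8 families) or complex V (Atp5 family). There were 86 of them among 54532 genes in the table, 21995 of which are protein-coding. Complex I had 38, complex II 4, complex III 8, complex IV 18 and complex V 18. Of the 86, 76 had enough reads to be tested and 10 did not.

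The cells were dendritic cells grown for 6 days from mouse tibia and femur marrow. Their growth factor, GM-CSF, is one on which macrophages and granulocytes also grow. Groups were wild type (WT) and Nlrx1-deficient (KO), each before challenge (0 h) and at 3, 6, 9 and 12 h after viable conidia of Aspergillus fumigatus (strain AF29), which gave 10 groups with 3 libraries each and 30 in all. NLRX1 is a NOD-like receptor protein of the mitochondrion, known to bind the complex III core protein UQCRC2. The sources used here do not state how the Nlrx1 allele was made, the age and strain of the mice, or whether replicate libraries stand for separate mice or cultures. The p-values therefore measure the spread between these libraries, which may be technical.

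The respiratory chain moves electrons from NADH through complex I, or from succinate through complex II, by way of ubiquinone, complex III and cytochrome c to oxygen at complex IV. Complexes I, III and IV pump protons, and complex V lets them back to make ATP. All complexes except II mix nuclear subunits with ones made from mitochondrial DNA, so both genomes must supply parts. Dendritic cells activated by microbial ligands are known to shift from respiration to glycolysis.

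Library totals ran from 1722384 to 3509429 counts with a median of 2492886, and the members took 0.43% to 0.52% of them. Nlrx1 itself ran from 5.26 to 14 CPM (counts scaled to library size and make-up) in WT and from 0 to 5.68 in KO libraries, so the ranges overlapped slightly. Its mean KO against mean WT difference was a log2 of -1.87 ± 0.28 (SE, edgeR adjusted p = 1.71e-05). The 14 dendritic cell markers summed to 3595 to 3774 CPM in WT and 3668 to 4043 in KO at 0 h, and their levels were uneven. Itgax ran from 1160 to 1410 CPM over all libraries, Zbtb46 from 6.64 to 24 and Ccr7 from 6.64 to 52.3. Macrophage markers summed to 3344 to 3511 CPM in WT and 2431 to 2656 in KO at 0 h, and neutrophil markers to 1471 to 1542 and 1231 to 1284. Single genes made up much of these sums. Over all times Apoe averaged 1260 CPM in WT and 750 in KO, and Mmp8 761 and 701. Not every marker was lower in KO, as Mertk averaged 48.4 and 53.4 CPM and Mmp9 222 and 223. Flt3, Cd209a, Ly6g and Elane were near 0. Of the 7 erythroid markers 2 were at 0 in every library. In bulk RNA, fewer cells of a type and less RNA per cell cannot be told apart.

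A feature of whole libraries touches many of the values that follow. Small RNA genes (snoRNA, snRNA, scaRNA, miRNA and misc_RNA) took 5.48% to 6.80% of counts in the 12 WT libraries of 0 to 9 h, but 3.82% to 4.01% in WT at 12 h and 3.07% to 4.28% in the 15 KO libraries. The mitochondrial chromosome took 7.70% to 9.48%, 10.3% to 11.2% and 10.9% to 13.1% of counts in the same 3 sets. WT libraries at 12 h thus lay with the KO libraries in small RNA. This split was noticed after seeing the data. No batch is named in the labels. Any difference that follows this split, between KO and WT at 0 to 9 h or between WT at 12 h and earlier, cannot be told apart from it. The comparisons that stay on one side of the split are the KO time course, WT at 3, 6 and 9 h against 0 h, and KO against WT at 12 h.

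Promoter windows from RefSeq (GRCm38.p6, 250 bases before to 50 after a start) were matched to 61 of the 76 tested members. Nuclear respiratory genes are known for sites of NRF1, of ETS-family factors such as GABP (NRF2), and of YY1. The NRF1 core GCGCATGC stood on either strand in 9 of the 61 members (14.8%) against 3.0% of the 27025 RefSeq genes with a window. The ETS core CCGGAAG stood in 16 (26.2% against 9.9%) and the YY1 core AAGATGGCG in 7 (11.5% against 1.6%). CCAAT was in 26 (42.6% against 41.1%), the ERR element TCAAGGTCA in 2 (3.3% against 0.5%), the NF-kappaB site GGGACTTTC in 1, that of Ndufv3 (1.6% against 0.4%), and the hypoxia element ACGTG in 13 (21.3% against 21.8%). Among the 7855 other tested genes with a window (63.8% of them, so that this set is incomplete) the shares were 6.2% for NRF1, 21.7% for ETS and 4.0% for YY1, closer to the members' than those of all genes. The members' windows held a median of 58.5% G and C, against 61.7% and 52.8% in the 2 larger sets. Of the 7 members with the YY1 core, 5 belong to complex I (Ndufa9, Ndufc1, Ndufs4, Ndufs6 and Ndufs7) and 2 to complex V, where complex I gave 33 of the 61 windows.

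The upstream 250 bases of 4 members are shown because these genes carry the changes described below and differ in their motifs. Cox6a1 (GRCm38.p6, chr5:115348959-115349208, minus strand) was lower in KO, Atp5k (chr5:108434400-108434649, minus strand) and Ndufc1 (chr3:51408956-51409205, minus strand) were higher in KO, and Atp5g3 (chr2:73911327-73911576, minus strand) was lower in WT at 12 h. Capitals mark a match to one of the 7 motifs on either strand.
Cox6a1: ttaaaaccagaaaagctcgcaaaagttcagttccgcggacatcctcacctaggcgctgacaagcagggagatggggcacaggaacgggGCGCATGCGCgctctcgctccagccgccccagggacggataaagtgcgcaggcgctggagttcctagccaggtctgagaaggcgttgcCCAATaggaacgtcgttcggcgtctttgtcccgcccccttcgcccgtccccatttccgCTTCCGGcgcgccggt
Atp5k: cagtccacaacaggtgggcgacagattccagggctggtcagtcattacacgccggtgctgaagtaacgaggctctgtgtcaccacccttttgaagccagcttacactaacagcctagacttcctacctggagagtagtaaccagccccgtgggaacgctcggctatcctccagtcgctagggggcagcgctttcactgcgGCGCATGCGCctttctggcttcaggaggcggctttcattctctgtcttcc
Atp5g3: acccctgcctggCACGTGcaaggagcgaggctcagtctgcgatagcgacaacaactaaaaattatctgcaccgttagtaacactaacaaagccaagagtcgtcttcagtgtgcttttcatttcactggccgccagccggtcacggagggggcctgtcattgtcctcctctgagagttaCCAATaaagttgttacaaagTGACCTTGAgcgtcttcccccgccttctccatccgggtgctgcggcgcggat
Ndufc1: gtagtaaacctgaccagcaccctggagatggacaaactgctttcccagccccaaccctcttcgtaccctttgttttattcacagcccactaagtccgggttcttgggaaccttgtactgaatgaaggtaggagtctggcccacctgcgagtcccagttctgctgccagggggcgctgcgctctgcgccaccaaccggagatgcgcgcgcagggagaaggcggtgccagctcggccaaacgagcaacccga
Cox6a1 holds NRF1 matches on both strands that overlap, then CCAAT and, on the complementary strand, an ETS core. Atp5k holds the same overlapping NRF1 pair, and its ETS match falls after the start. Cox6a1 and Atp5k are among the 9 members with the NRF1 core, and a link between a motif and a change was not tested. Atp5g3 holds ACGTG on both strands of a CACGTG palindrome, CCAAT and, on the complementary strand, an ERR element. In Ndufc1 no upstream match was found, and its YY1 core lies after the start. A match is a description of letters, not of binding.

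Before challenge the members spanned a wide range of levels. In WT at 0 h the 76 tested members ran from 10.97 to 524 CPM with a median of 43.5. Per kilobase of exon, the scale on which genes can be compared, they ran from 1.95 (Ndufb2, a small membrane subunit whose annotated exons are long) to 168 CPM per kb (Cox8a) with a median of 26.3. In summed CPM, which is not scaled to exon length, ATP synthase stood highest. Its 16 tested genes summed to 2008 ± 34.8 CPM (SD, n = 3), against 1281 ± 13.5 for the 37 of complex I, 788 ± 19.7 for the 11 of complex IV, 454 ± 34.2 for the 8 of complex III and 394 ± 6.74 for the 4 of complex II.

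**Figure D1:**
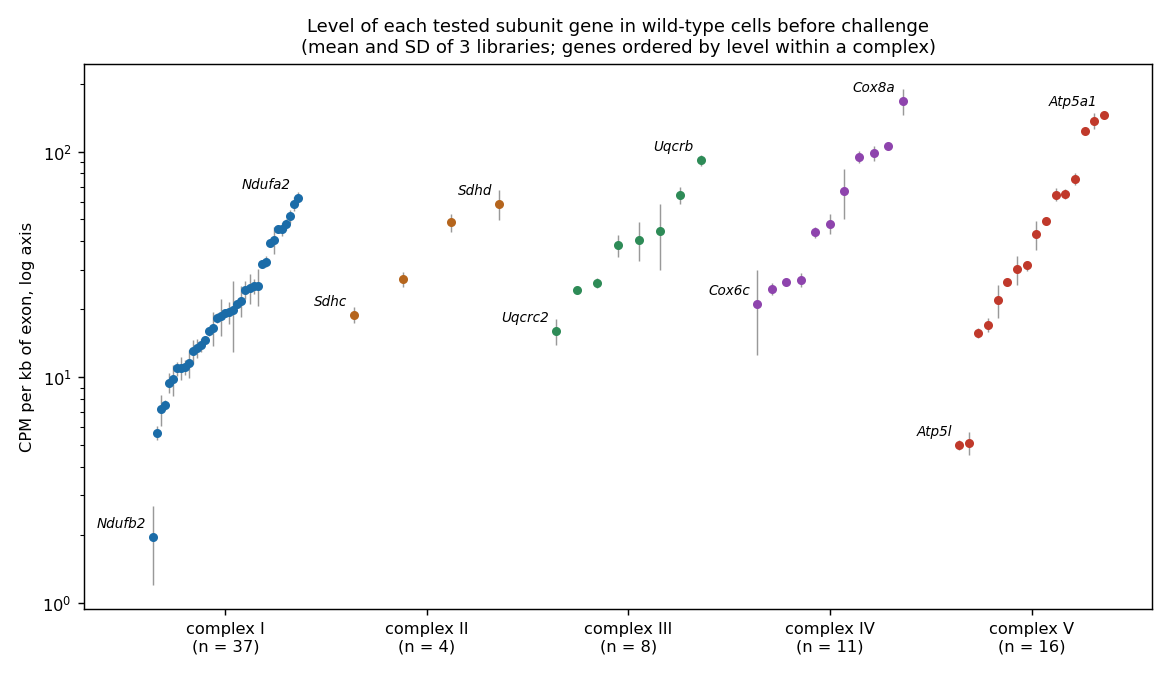
Mean level of each tested member in WT libraries at 0 h in CPM per kb of exon (log axis), with the SD of 3 libraries, by complex. Complexes IV and V hold the highest genes (Cox8a at 168 and Atp5a1 at 145.5 CPM per kb), and Ndufb2 is the lowest at 1.95.

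In complex V the highest gene was Atp5a1, of the catalytic head, followed by the membrane subunit gene Atp5k at 137 ± 11.3 CPM per kb, and the head genes were uneven. Atp5a1 (alpha) stood at 145.5 ± 3.71 CPM per kb and Atp5b (beta) at 124 ± 2.64, with Atp5c1 (gamma) at 64.5 ± 4.14, Atp5d (delta) at 49.3 ± 0.865 and Atp5e (epsilon) at 21.9 ± 3.67 (SD, n = 3). Of the 3 genes for the c-ring, whose mature proteins are identical, Atp5g3 stood at 43.0 ± 6.31 CPM per kb, Atp5g2 at 15.8 ± 0.773 and Atp5g1 at 5.13 ± 0.598. In complex II the flavoprotein gene Sdha stood at 48.6 ± 4.42 CPM per kb, the iron-sulphur gene Sdhb at 27.1 ± 2.14, and the membrane anchors Sdhc and Sdhd at 18.9 ± 1.53 and 58.5 ± 8.93. In complex III the core genes Uqcrc1 and Uqcrc2 stood at 24.4 ± 0.683 and 16.02 ± 2.07 CPM per kb, the Rieske gene Uqcrfs1 at 38.4 ± 4.37, and the small subunit gene Uqcrb at 91.7 ± 5.10. In complex I the electron input genes Ndufv1, Ndufv2 and Ndufs1 stood at 14.6, 21.9 and 7.20 CPM per kb, and the quinone module genes Ndufs3, Ndufs7 and Ndufs8 at 9.80, 19.4 and 13.9. These lengths take in every annotated exon of a gene, which lowers the value of genes with long rare transcripts.

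Complex IV has subunits with isoforms made in particular tissues, and in these cells the common form was the one read in each pair. Cox4i1 stood at 67.1 CPM per kb, while its hypoxia-linked partner Cox4i2 had 2 counts over all 30 libraries. The heart and muscle form Cox6a2 had 2 counts against 4267 for Cox6a1, the muscle form Cox7a1 had 15, and the testis forms Cox6b2 and Cox7b2 had 8 and 2. Cox8b and Cox8c had 0 counts, as had Ndufa4l2, the hypoxia-linked relative of Ndufa4, which was named for complex I and is known to sit with complex IV. The other 2 untested members were a second annotated Atp5o locus with 2 counts and Atp5s with 68. These 10 genes are not used below.

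Within a group the members' median coefficient of variation between the 3 libraries was 10.2%, from 3.68% for Atp5a1 to 33.5% for Cox6c. Other genes of like level were not compared. The group mean of a member differed by a median of 1.28-fold between its highest and lowest group, from 1.10-fold for Sdha to 1.96-fold for Ndufc1. Cox6c ran from 33.6 to 111 CPM, with 42.4 and 103 CPM in WT replicates 2 and 3 at 0 h. Its processed copy Cox6c2, which is not protein-coding, held 2081 counts against 5534 for Cox6c, so the split between the copies is uncertain. Ndufa1 was at 0 in KO replicate 2 at 6 h and between 17.5 and 31.9 CPM in the other 29 libraries. Counts of Cox4i1 and Cox6b1 also scattered, with coefficients of 17.2% and 16.7%.

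In WT cells no member passed the test in the first 9 h. At 3 h 0 of 76 passed against 1.02% of the 12393 genes tested, at 6 h 0 against 5.96%, and at 9 h 0 against 10.4% (edgeR quasi-likelihood test, Benjamini-Hochberg adjusted over all genes tested). At an unadjusted p under 0.05 there were 1, 3 and 4 members, and DESeq2 called 0 at each time. The members' median log2 change was 0.02, 0.03 and 0.03. At 9 h 92.1% of the members lay within 0.25 of no change on the log2 scale, against 53.3% of all genes tested. The genes tested were not matched to the members in level, and the part of level in this contrast was not tested. The median standard error of a member's change was 0.13, so a change of 0.25 in one gene was often within error.

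At 12 h 6 of 76 members (7.89%) passed in WT against 18.1% of all genes tested, 2 higher and 4 lower. Atp5a1, the catalytic alpha subunit, was at 443.5, 459 and 466 CPM at 0 h, from 416 to 454 at 3 to 9 h, and at 360, 381 and 376 at 12 h. Every 12 h library lay below every earlier WT library, and the log2 change from 0 h was -0.29 ± 0.05 (SE, edgeR adjusted p = 0.000171). Ndufb10, an accessory subunit of the membrane arm, was at 59.0, 54.5 and 60.6 CPM at 0 h and at 40.4, 48.9 and 47.9 at 12 h. It fell by 0.35 ± 0.08 on the log2 scale (edgeR adjusted p = 0.00355). The edgeR adjusted p was 0.0846 without WT 12 h replicate 1, the lowest, and 0.0605 with only the groups compared.

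Both members that rose in WT at 12 h belong to complex I. Ndufc1, a small membrane-arm subunit, was at 19.1, 18.9 and 22.4 CPM at 0 h and at 29.6, 30.3 and 30.3 at 12 h, a log2 change of 0.58 ± 0.15 (edgeR adjusted p = 0.00682). Ndufa12, a subunit of the peripheral arm, was at 29.3, 31.5 and 29.5 CPM at 0 h and at 44.8, 41.8 and 45.9 at 12 h, a log2 change of 0.55 ± 0.16 (edgeR adjusted p = 0.0131). In both genes the groups did not overlap, although one WT library at 3 h reached 42.0 CPM for Ndufa12.

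The other 2 calls were less stable. Cox6a1, a regulatory subunit of complex IV, was at 67.5, 70.1 and 62.2 CPM at 0 h and 57.02, 54.17 and 49.54 at 12 h, a log2 change of -0.31 ± 0.10 (edgeR adjusted p = 0.0240). Atp5g3, a c-ring gene, was at 78.0, 99.4 and 104 CPM at 0 h and 75.6, 66.6 and 64.3 at 12 h, a log2 change of -0.44 ± 0.14 (edgeR adjusted p = 0.0296). Cox6a1 was lost without WT 0 h replicate 1 or 2 or WT 12 h replicate 2 or 3 (highest edgeR adjusted p = 0.0979), and Atp5g3 without WT 0 h replicate 2 or 3 or WT 12 h replicate 2 or 3 (highest 0.132). By complex the sum of complex V was 1794 ± 21.8 CPM at 12 h against 2008 ± 34.8 at 0 h (SD, n = 3), a log2 ratio of -0.16. That of complex I was 1272 ± 19.6 against 1281 ± 13.5. Within complex V the catalytic head and stalk genes summed to 1052 CPM at 12 h against 1237 at 0 h, and the c-ring genes to 113 against 145. The peripheral stalk genes stood at 354 against 360 and the membrane accessory genes at 275 against 265. Of the 16 complex V genes, 10 had a lower value at 12 h.

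Against 9 h, 4 members (5.26%) passed in WT at 12 h against 10.5% of all genes tested. Atp5a1 fell by 0.25 ± 0.05 and Ndufb10 by 0.30 ± 0.08 on the log2 scale, while Ndufa12 rose by 0.47 ± 0.15 and Ndufv3, an accessory subunit next to the electron input site, by 0.40 ± 0.13 (edgeR adjusted p = 0.0019, 0.0149, 0.0447 and 0.0441). Atp5a1 held without any single library, Ndufb10 was lost without WT 9 h replicate 1 or WT 12 h replicate 1 (highest 0.217), and the other 2 were lost without any one of the 6 libraries (highest 0.143 and 0.159). With small RNA share added to the model, an alternative chosen after seeing the data, no member passed in WT at 12 h against either time. In WT the share at 12 h does not overlap that of earlier libraries, so this fit cannot tell a change at 12 h from the share.

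**Figure D2:**
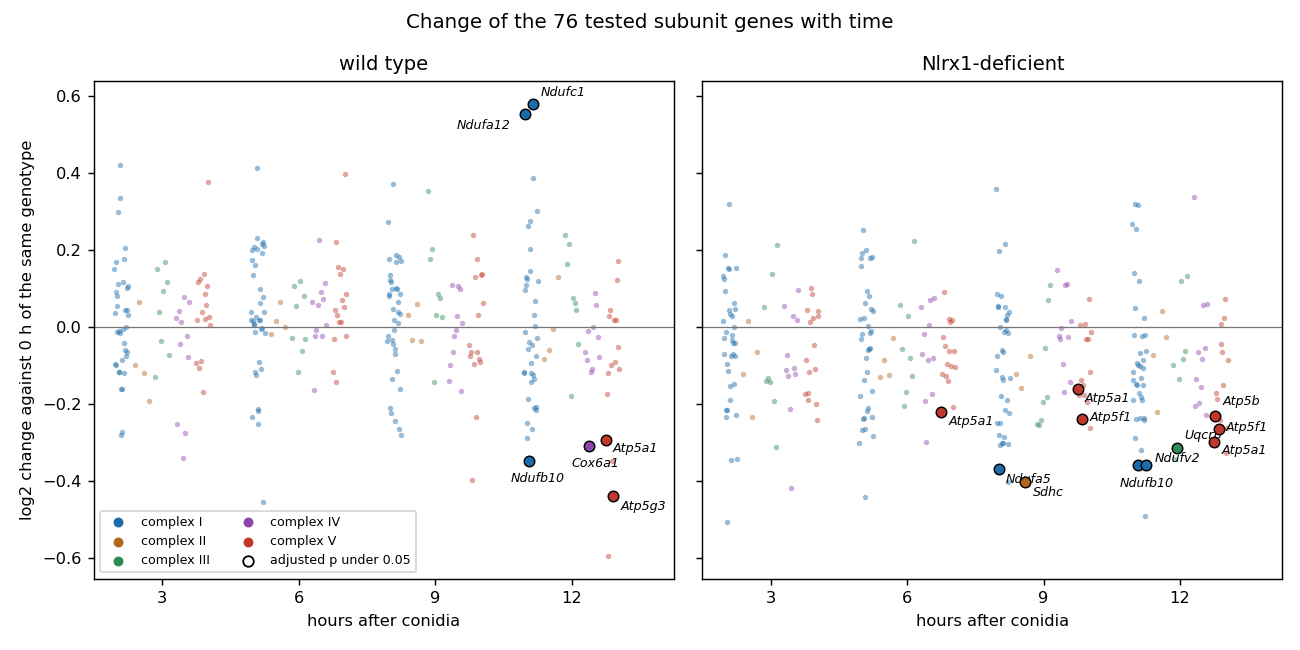
Log2 change of each of the 76 tested members against 0 h of the same genotype at 3, 6, 9 and 12 h, coloured by complex, with outlined points for an edgeR adjusted p under 0.05. No member is outlined in WT before 12 h, and all outlined members in KO lie below 0.

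In KO cells the members that moved against 0 h all fell. Small RNA took 3.34% to 3.5% of counts in KO at 0 h and 3.20% to 3.53% at 12 h, and the mitochondrial chromosome 10.9% to 12.2% and 12.2% to 13.1%. Of the 10 macrophage markers, 8 changed in KO by 12 h (3 higher, 5 lower) and 8 in WT (2 higher, 6 lower), and the part of cell make-up in the members' changes was not tested. At 3 h 0 of 76 passed against 1.22% of all genes tested (5 at an unadjusted p under 0.05, 0 by DESeq2), and 1 passed without KO 0 h replicate 1 or without KO 3 h replicate 2. At 6 h 1 (1.32%) passed against 5.91%, at 9 h 4 (5.26%) against 10.9%, and at 12 h 6 (7.89%) against 14.7%. The members' median log2 change was -0.07, -0.06, -0.10 and -0.11 at 3, 6, 9 and 12 h, and 59 of 76 had a lower value at 12 h. The medians of all genes tested lay within 0.01 of 0.

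Atp5a1 was the member with the firmest change in KO. It was at 406.5, 454 and 455 CPM at 0 h, from 368 to 409 at 3 h, from 366 to 392.5 at 6 h, from 366 to 427 at 9 h, and at 354, 356.5 and 360.0 at 12 h. The 12 h libraries lay below all other KO libraries. The log2 change from 0 h was -0.22 ± 0.05 at 6 h, -0.16 ± 0.05 at 9 h and -0.30 ± 0.05 at 12 h (edgeR adjusted p = 0.00878, 0.0450 and 0.000162). The 12 h call was the only one of all 59 calls among the members that held under every alternative, including every library left out and the small RNA covariate. The share differed little between KO at 0 and 12 h, so the covariate is a weak check of this call. The Atp5a1 call in WT at 12 h against 0 h was lost only with that covariate. The 6 h call was lost without KO 0 h replicate 2 or 3 or KO 6 h replicate 3 (highest edgeR adjusted p = 0.0641), and the 9 h call without KO 0 h replicate 2 or 3 or KO 9 h replicate 1 or 2 (highest 0.252).

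Of the other 5 members that fell in KO at 12 h, 2 belong to ATP synthase, 2 to complex I and 1 to complex III. Atp5f1, of the peripheral stalk, was at 125, 129 and 127 CPM at 0 h and at 99.4, 106 and 112 at 12 h, a log2 change of -0.26 ± 0.06 (edgeR adjusted p = 0.00389). It had also fallen at 9 h, by 0.24 ± 0.06 (edgeR adjusted p = 0.0109, and 0.0627 without KO 0 h replicate 2). Ndufb10 was at 58.1, 58.8 and 55.7 CPM at 0 h and at 45.3, 45.9 and 43.0 at 12 h, a log2 change of -0.36 ± 0.08 (edgeR adjusted p = 0.00949, and 0.0507 without KO 0 h replicate 2). In both genes all 3 late libraries lay below all 3 early ones.

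Uqcrb, a small complex III subunit at the ubiquinone site, was at 113, 103 and 109 CPM at 0 h and 85.0, 78.1 and 99.8 at 12 h (log2 -0.31 ± 0.09, edgeR adjusted p = 0.0193). Atp5b fell by 0.23 ± 0.07 and Ndufv2, an iron-sulphur subunit of electron input, by 0.36 ± 0.11 on the log2 scale (edgeR adjusted p = 0.0257 and 0.0297). Uqcrb was lost without KO 0 h replicate 1 or KO 12 h replicate 1 or 2 (highest 0.121), Atp5b without KO 0 h replicate 2 or KO 12 h replicate 1 or 2 (highest 0.145), and Ndufv2 without KO 0 h replicate 1 or KO 12 h replicate 2 (highest 0.207). DESeq2 called 1 member at 12 h, as did edgeR on the 6 libraries of these groups alone.

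Sdhc, a membrane anchor of complex II, gave a fall and a rise in KO that share the same 3 libraries at 9 h. It was at 53.1, 61.1 and 57.9 CPM at 0 h, at 42.4, 43.8 and 44.2 at 9 h and at 60.2, 56.1 and 61.6 at 12 h. It fell by 0.40 ± 0.12 on the log2 scale from 0 to 9 h and rose by 0.45 ± 0.12 from 9 to 12 h (edgeR adjusted p = 0.0259 and 0.0246), the 1 member (1.32%) that passed against 9 h where 4.49% of all genes did. Already at 3 and 6 h its KO libraries scattered from 40.2 to 63.5 CPM. The fall was lost without KO 0 h replicate 2 or 3 or any KO 9 h library (highest 0.130), and the rise without any KO 9 h library or KO 12 h replicate 1 or 3 (highest 0.102). Ndufa5, of the peripheral arm, fell by 0.37 ± 0.12 at 9 h (edgeR adjusted p = 0.0495), which was lost without KO 0 h replicate 1, 2 or 3 or KO 9 h replicate 1 or 3 (highest 0.290).

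**Figure D3:**
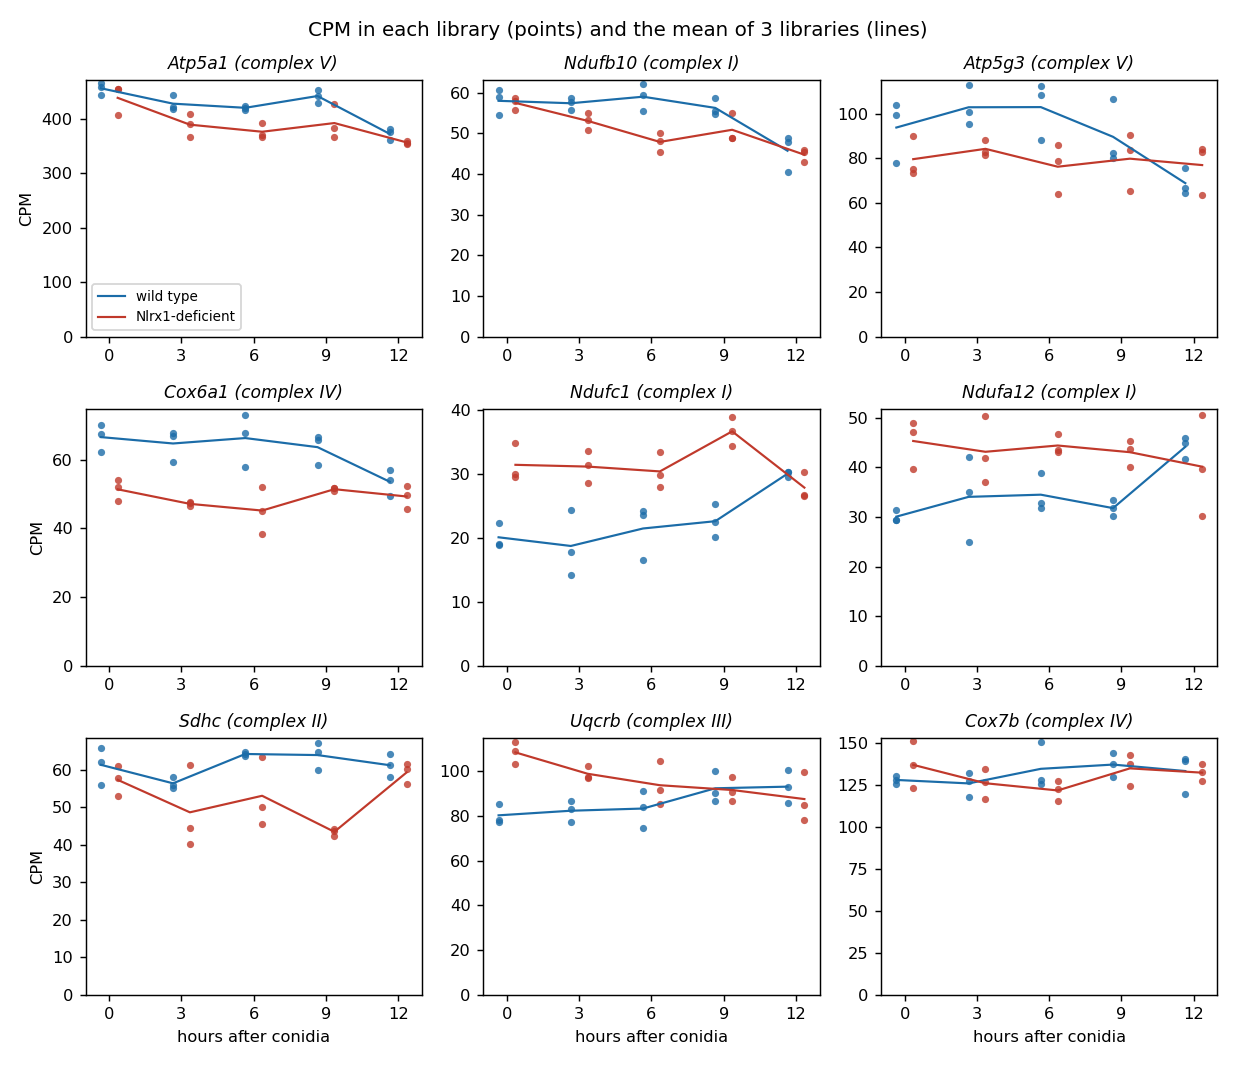
CPM of 9 members in each library (points) with the mean of 3 libraries per group (lines), in WT (blue) and KO (red) by hours after conidia. Atp5a1 and Ndufb10 end low in both genotypes, Cox6a1 and Ndufc1 separate the genotypes until 12 h, and Cox7b stays between 115.5 and 151 CPM throughout.

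Most catalytic genes gave no call in either time course. Ndufs1, the largest iron-sulphur subunit, had a log2 change at 12 h of 0.03 ± 0.11 in WT and -0.02 ± 0.11 in KO (SE), and Ndufv1, which binds NADH and flavin, of -0.03 ± 0.14 and -0.02 ± 0.14. Sdha gave -0.08 ± 0.06 and -0.07 ± 0.06, Uqcrc2, the known partner of NLRX1, 0.08 ± 0.13 and 0.12 ± 0.13, and Cox5b -0.01 ± 0.08 and -0.14 ± 0.09. The lowest value in KO at 12 h was that of Ndufs8, an iron-sulphur subunit of the quinone module, with -0.49 ± 0.17 (edgeR adjusted p = 0.0570). Some errors were too wide to exclude a change of the size seen in Atp5a1, as for Cox4i1 with 0.34 ± 0.23 in KO.

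Between genotypes, a few members differed at each time before 12 h and none at 12 h. At 0 h 7 of 76 (9.21%) passed against 5.02% of all genes tested, at 3 h 2 (2.63%) against 6.92%, at 6 h 2 (2.63%) against 5.78%, at 9 h 4 (5.26%) against 5.06%, and at 12 h 0 against 1.90%. At 12 h 4 members had an unadjusted p under 0.05 and DESeq2 called 0. Small RNA shares were nearest at 12 h (3.82% to 4.01% in WT, 3.20% to 3.53% in KO). Macrophage markers were lower in KO for 6 of 10 genes at 0 h and 4 of 10 at 12 h, and neutrophil markers for 4 and 5 of 8 tested. The part of cell make-up in the members' differences was not tested. With the small RNA share as a covariate 0 members passed at any time, and the genes passing at 0 h fell from 622 to 6 of all those tested. That share separates the genotypes without overlap at 0 to 9 h, so this fit cannot tell a genotype difference from the share.

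The 7 members at 0 h were 6 higher and 1 lower in KO. Ndufv2 was at 50.9, 38.6 and 51.5 CPM in WT and 79.6, 59.6 and 65.8 in KO (log2 0.53 ± 0.11, edgeR adjusted p = 0.00389). Uqcrb was at 78.4, 77.2 and 85.5 CPM in WT and 113, 103 and 109 in KO (log2 0.43 ± 0.09, edgeR adjusted p = 0.00377). Both held without any single library, and Ndufv2 was lost with only the groups compared (edgeR adjusted p = 0.104). Ndufc1 was higher by 0.65 ± 0.15, Ndufa12 by 0.59 ± 0.16, Ndufa5 by 0.49 ± 0.12 and Atp5f1 by 0.22 ± 0.06 on the log2 scale, and Cox6a1 lower with -0.37 ± 0.10 (edgeR adjusted p = 0.00882, 0.0262, 0.0152, 0.0367 and 0.0237). Ndufc1 was lost without KO 0 h replicate 2 (0.0689) and Ndufa5 without WT 0 h replicate 1 or KO 0 h replicate 2 (highest 0.0682). Atp5f1 was lost without any one library (highest 0.154), Ndufa12 without any but KO 0 h replicate 3 (highest 0.105), and Cox6a1 without WT 0 h replicate 1 or 2 or KO 0 h replicate 1 or 3 (highest 0.113). These high values of Uqcrb, Ndufv2, Ndufa5 and Atp5f1 in KO at 0 h are also the base from which the falls in KO were measured.

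Cox6a1 and Ndufc1 were the members that most often differed. Cox6a1 ran from 57.9 to 73.1 CPM in the 12 WT libraries of 0 to 9 h, from 49.54 to 57.02 in WT at 12 h, and from 38.5 to 54.0 in the 15 KO libraries. It was lower in KO with a log2 of -0.45 ± 0.10 at 3 h and -0.56 ± 0.10 at 6 h (edgeR adjusted p = 0.00422 and 0.000761), and both held without any single library. Ndufc1 ran from 14.2 to 25.3 CPM, from 29.6 to 30.3, and from 26.6 to 39.0 in the same 3 sets. It was higher in KO by 0.75 ± 0.16 at 3 h and 0.70 ± 0.14 at 9 h (edgeR adjusted p = 0.00266 and 0.00269), and both held without any single library. Fitted on the libraries of the 2 groups compared alone, Ndufc1 at 3 h and Cox6a1 at 6 h no longer passed (edgeR adjusted p = 0.083 and 0.0691). The values of both genes follow the split in small RNA share. In WT at 12 h Ndufc1 lay within the KO range, while Cox6a1 lay below earlier WT libraries and overlapped the KO range only in part.

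**Figure D4:**
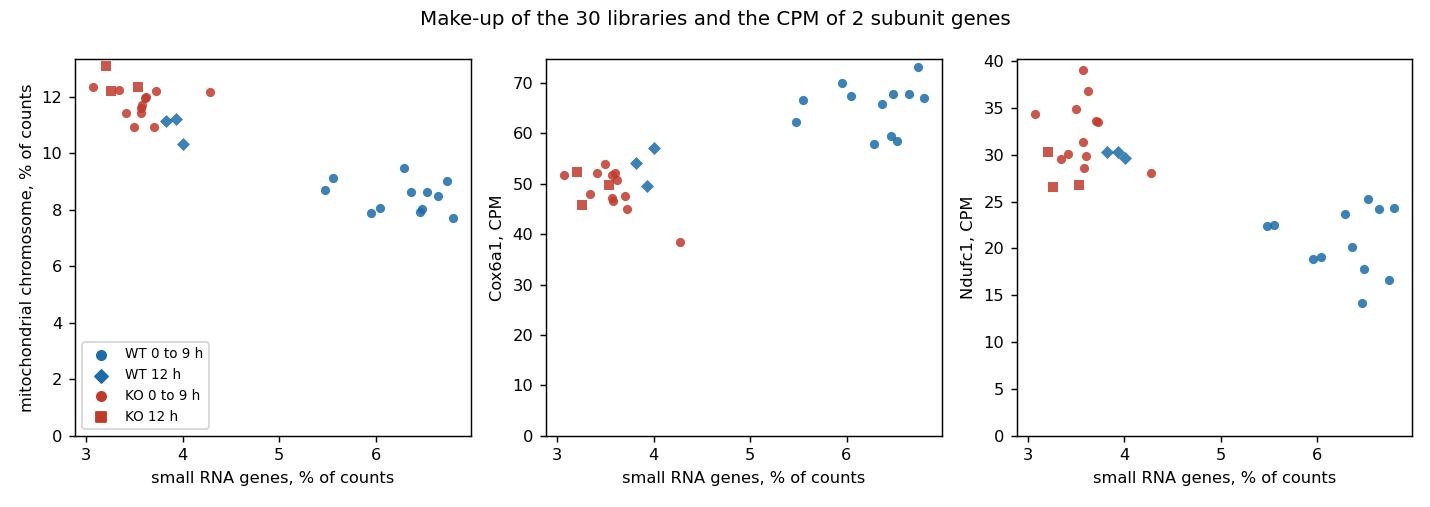
Share of counts in small RNA genes (percent, x axis) against the share on the mitochondrial chromosome (percent) and the CPM of Cox6a1 and Ndufc1 in each of the 30 libraries. The 12 WT libraries of 0 to 9 h lie at 5.48% or more small RNA, and the WT libraries of 12 h lie beside the KO libraries, which reach 4.28%.

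The remaining calls at single times were few. At 6 h Ndufa13, a membrane-arm subunit also known as Grim19, was at 52.6, 53.0 and 60.0 CPM in WT and 81.4, 78.6 and 65.2 in KO (log2 0.44 ± 0.09, edgeR adjusted p = 0.0040). Without KO 6 h replicate 1, 4 members passed at 6 h in place of 2. At 9 h Sdhc was at 60.0, 67.2 and 64.6 CPM in WT and at 42.4, 43.8 and 44.2 in KO (log2 -0.56 ± 0.12, edgeR adjusted p = 0.00281). The time calls of Sdhc in KO use the same KO libraries of 9 h. The Ndufa13 and Sdhc calls both held without any single library. Ndufa13 was lost with only the groups compared or without the count filter (edgeR adjusted p = 0.0795 and 0.090). Atp5k, a membrane subunit of ATP synthase, was higher by 0.38 ± 0.10 and Atp5mpl, another, lower with -0.31 ± 0.09 (edgeR adjusted p = 0.0262 and 0.0406). Atp5k was lost without WT 9 h replicate 3 or any KO 9 h library (highest 0.182) and Atp5mpl without any one library (highest 0.15).

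Averaged over the 5 times, 22 of 76 members (28.9%) differed between KO and WT against 24.9% of all genes tested, 10 higher and 12 lower in KO. With relative log expression (RLE) size factors the split was 11 and 9, and without the count filter, where the median of all genes moved to 0.18, it was 3 and 16. Complex I gave 5 higher and 5 lower, complex II 1 lower, complex III 1 higher, complex IV 2 higher and 1 lower, and complex V 2 higher and 5 lower. The differences were small. The largest were Ndufc1 (0.50 ± 0.07), Atp5d (-0.39 ± 0.10), Cox6a1 (-0.36 ± 0.04), Ndufa12 (0.32 ± 0.07), Ndufa5 (0.28 ± 0.06), Sdhc (-0.24 ± 0.05), Ndufa9 (-0.21 ± 0.07), Atp5g3 (-0.19 ± 0.06), Ndufs7 (-0.19 ± 0.07) and Cox7a2l (0.18 ± 0.06) on the log2 scale. Their edgeR adjusted p ran from 4.67e-07 (Cox6a1) to 0.0437 (Ndufs7). Of these 10, Ndufa9 was lost in 5, Ndufs7 in 15 and Cox7a2l in 14 of the 30 fits that left out 1 library, and the other 7 in none. Cox7a2l is known as a factor that joins complexes III and IV.

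Among other core genes Atp5a1 (-0.12 ± 0.02, edgeR adjusted p = 0.000472) was lower in KO, and Ndufv2 (0.15 ± 0.05, 0.0274) and Cox5a (0.15 ± 0.05, 0.0205) higher. Atp5a1 was lower in KO at all 5 times. In all, 6 members were higher and 16 lower in KO at each of the 5 times. The matching shares over all genes tested were not computed, and the comparisons at 0 to 9 h all lie across the split in small RNA share. Uqcrc2 was higher at each of the 5 times, by 0.11 ± 0.06 on average (edgeR adjusted p = 0.172). With the small RNA covariate, which follows genotype at 0 to 9 h, 0 of the 22 passed, and 7 of them changed sign.

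The change with time was not shown to differ between genotypes for any member. The interaction test over the 4 later times passed for 0 of 76 against 0.888% of all genes tested. At an unadjusted p under 0.05 there were 9 members, DESeq2 called 0, and 1 passed without WT 3 h replicate 2. The falls of Uqcrb, Ndufv2 and Atp5f1 in KO and the rise of Ndufc1 in WT are thus calls within a genotype only. The 2 time courses share no libraries, but each was measured against its own 0 h group.

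Atp5d, the delta subunit of the F1 stalk, was the only member in the authors' deposited tables, and stood in 2 of the 13. The authors' deposited table for WT at 12 h against 0 h gives it a log2 fold change of -0.598 (adjusted p = 0.031), and the authors' deposited table for the genotypes at 3 h gives 0.671 for WT over KO (adjusted p = 0.0226). In the present fit it was at 93.2, 96.5 and 95.4 CPM in WT at 0 h and 74.2, 46.4 and 68.0 at 12 h (log2 -0.60 ± 0.22, edgeR adjusted p = 0.0565). At 3 h it was at 88.5, 92.4 and 84.0 CPM in WT and 50.6, 48.7 and 67.7 in KO (log2 -0.67 ± 0.22, edgeR adjusted p = 0.0741). It scattered in KO already at 0 h, with 50.6, 85.4 and 52.1 CPM. Absolute log2 changes under 0.50 are not listed in those tables, which leaves out changes of the size seen in most members here.

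The subunits made from mitochondrial DNA gave larger differences than the nuclear members. All 13 passed as higher in KO than WT at 0, 3, 6 and 9 h and 11 at 12 h. Of all genes tested 5.02%, 6.92%, 5.78%, 5.06% and 1.90% passed in either direction. At 12 h mt-Co3 and mt-Nd3 were higher by 0.13 and 0.25 on the log2 scale without passing. The 13 had a median log2 of 0.58, 0.68, 0.65, 0.83 and 0.48, while the nuclear members had medians of 0.04, -0.03, -0.06, -0.09 and -0.02. mt-Atp8, which overlaps mt-Atp6, differed most at 0 h, with a mean of 278 CPM in WT and 601 in KO (log2 1.11 ± 0.08, edgeR adjusted p = 4.92e-10). mt-Co1, the catalytic core of complex IV, was at 2679 CPM in WT and 3479 in KO at 0 h (log2 0.38 ± 0.06, edgeR adjusted p = 0.000173). In WT 11 of 13 passed as higher at 12 h and 3 as lower at 9 h, against 18.1% and 10.4% of all genes tested in either direction. In KO 3 passed as higher at 12 h, against 14.7%. The mitochondrial shares move with the small RNA share over most groups. At 12 h, where 11 genes passed, the small RNA shares were 3.82% to 4.01% in WT and 3.20% to 3.53% in KO, without overlap. With the small RNA covariate the genes passing at 0 h were fewer than these 13, so not all of them kept their call. That fit cannot tell genotype from the share, and the part of library make-up in these differences was not tested.

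**Figure D5:**
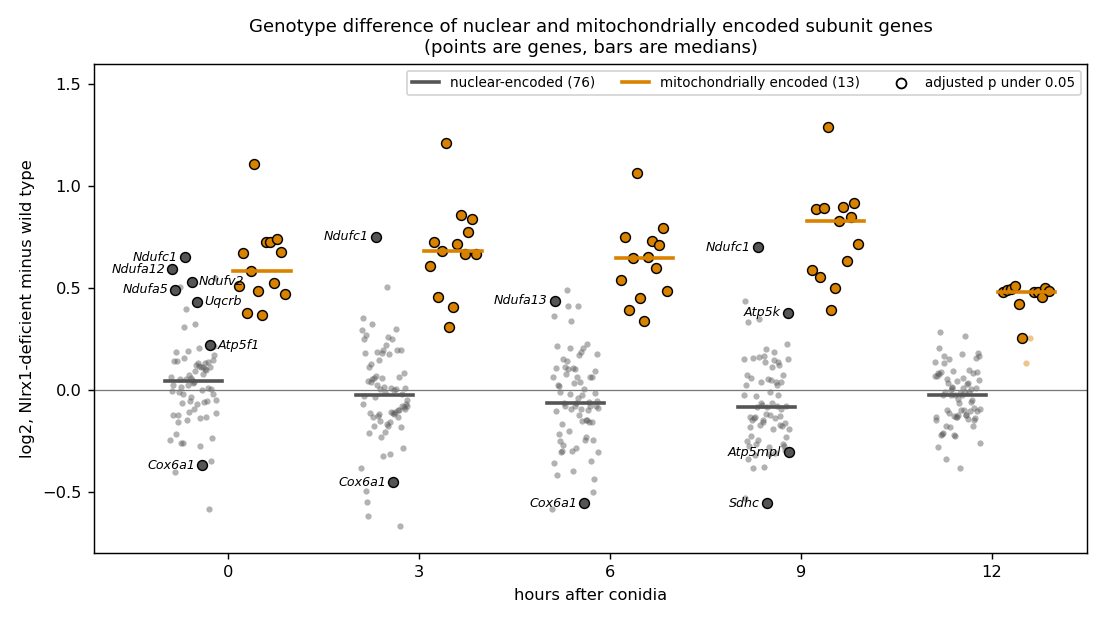
Log2 difference between KO and WT at each time for the 76 nuclear members (grey) and the 13 mitochondrially encoded subunits (orange), with bars for medians and outlined points for an edgeR adjusted p under 0.05. The mitochondrial medians lie between 0.48 and 0.83 and the nuclear medians between -0.09 and 0.04.

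Genes that build or feed the chain were read from lists. Of 46 tested assembly factors, 3 passed in WT at 12 h (1 higher, 2 lower), 3 in KO at 12 h, all lower, and 3 between genotype means, all higher in KO. Over all genes tested 18.1%, 14.7% and 24.9% passed in these comparisons, so none of these counts stood above the background. Ndufaf4, a complex I assembly factor, fell in WT at 9 h from 23.9 to 13.6 CPM (log2 -0.82 ± 0.18, edgeR adjusted p = 0.00223) and in KO at 12 h from 22.7 to 12.0 CPM (log2 -0.92 ± 0.19, edgeR adjusted p = 0.000812). Cox17, the copper carrier for complex IV, rose in WT at 12 h from 34.2 to 59.6 CPM and was higher in KO at 0, 3, 6 and 9 h (log2 0.74 to 0.79). The differences of Cox17 again cannot be told apart from the split in small RNA share.

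Of 22 electron carriers and exchange proteins, 2 passed in WT at 12 h and 3 in KO, the latter all lower, against 18.1% and 14.7% of all genes tested. Slc25a5, the main ADP/ATP carrier of dividing cells, fell by 0.42 ± 0.06 in WT and 0.39 ± 0.06 in KO on the log2 scale at 12 h (edgeR adjusted p = 2.73e-06 and 9.66e-06), and Atpif1, the inhibitor of ATP synthase, by 0.21 ± 0.06 in KO (edgeR adjusted p = 0.0156). Cycs, cytochrome c, was higher in KO by 0.23 ± 0.04 on average (edgeR adjusted p = 8.66e-05). Of 18 genes of the TCA cycle and pyruvate dehydrogenase, 5 passed in WT at 12 h and 6 in KO, all lower, against 18.1% and 14.7% of all genes tested in either direction. Idh3a, of the NAD-dependent isocitrate dehydrogenase, fell by 0.45 ± 0.11 in WT and 0.60 ± 0.11 in KO, and Idh2 by 0.45 ± 0.13 and 0.53 ± 0.14 (edgeR adjusted p from 0.000406 to 0.0164).

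Of 78 mitochondrial ribosomal protein genes, 3 passed in WT at 12 h (1 higher, 2 lower) and 4 in KO, all lower, with Mrpl52 lower in both (-0.47 ± 0.10 and -0.48 ± 0.11). Of 24 tested import genes, 1 passed in WT at 12 h and 4 in KO, all lower. Both lists gave fewer calls or about as many as the 18.1% and 14.7% of all genes tested. The channel gene Tomm40 fell in both genotypes (log2 -0.46 ± 0.15 and -0.58 ± 0.16). Timmdc1, a complex I assembly factor by function, stands in both the assembly and the import list. Of 16 tested regulators of mitochondrial gene expression 0 passed in WT at 12 h and 1 in KO. Gabpa, the DNA-binding part of the ETS factor GABP, fell in KO from 55.1 CPM at 0 h to 36.3 at 9 h (log2 -0.60 ± 0.14, edgeR adjusted p = 0.00452) and stood at 52.7 at 12 h. Gabpa overlaps the member Atp5j on the opposite strand, and no source used here states the strand setting of the counts. The same holds for Ndufs1 beside Eef1b2, Ndufb2 beside Braf and Cox6c beside Vps13b, whose partners held more counts than the members themselves.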

How the data were processed

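The deposited table held whole-number counts per Ensembl gene in 30 libraries, taken as the authors' raw counts from their values. The tools named in the submitters' processing notes are HISAT2, StringTie, Trimmomatic 0.35 and DESeq2, with the build GRCm38. No source used here states the annotation, strand setting or counting step. Libraries were stranded poly(A) libraries, per the labels' protocols. The deposited tables of 13 comparisons give the authors' log2 fold changes and, per the file headers, the authors' adjusted p-values.

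Names, biotypes, exon lengths and overlaps came from GENCODE M21 (GRCm38). edgeR 4.0.16 in R 4.3.3 kept 12393 genes (filterByExpr, minimum count 10), scaled by TMM and fitted a robust quasi-likelihood model with 1 coefficient per group to all 30 libraries. P-values are two-sided and Benjamini-Hochberg adjusted over these genes (threshold 0.05). CPM are counts scaled to a common TMM-adjusted library size. DESeq2 1.42.0 was an alternative. The code was tested on simulated data. The members and lists were chosen with earlier results of these data known. Any member could be named, with the 10 largest passing changes per comparison, core genes and isoform pairs in full, and list genes only among the 3 largest of their list. Alternative settings and each library left out were also fitted. Values of 1 member are not reported here. No pair of libraries within a group agreed within sampling noise.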

Additional observations from a re-analysis of the deposited data

How the results depend on the processing

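Alternatives were RLE size factors, no count filter, only the groups compared, protein-coding nuclear genes only, a replicate block, DESeq2, each library left out, and, chosen after seeing the data, the small RNA share as a covariate. Of 59 calls among the members, 28 held whichever library was left out and 19 of these also in every other planned setting, while 47 were lost with the small RNA covariate. For WT at 12 h against 0 h the 6 members became 0 with the covariate. Against 9 h the 4 became 2 without the count filter, 1 with DESeq2, 0 with the covariate and 2 with any library left out. For KO the counts with a library left out ran from 0 to 1 at 3 h, 0 to 1 at 6 h, 0 to 3 at 9 h, and 0 to 1 at 12 h against 9 h. In KO at 9 h the 4 became 2 with RLE, 2 with protein-coding nuclear genes only, and 0 without the filter, with only the groups compared or with DESeq2. At 6 h only the groups compared gave 0, at 12 h that setting and DESeq2 gave 1 each, and at 12 h against 9 h that setting and no filter gave 0 each. For KO against WT at 0 h the 7 became 3 without the filter, 3 with only the groups compared, 4 with DESeq2, and 3 to 6 with a library left out. At 3 h only the groups compared again gave 2, without Ndufc1. At 6 h no filter gave 1, only the groups compared 0, and a library left out 2 to 4, and at 9 h only the groups compared gave 2 and a library left out 2 to 4. The covariate gave 0 at 0, 3, 6 and 9 h. For the mean difference the 22 became 13 with DESeq2 and 0 with the covariate, and the interaction gave 0 to 1 with a library left out. With the covariate 7 mean differences changed sign, among them those of 6 named members, to -0.10 (Ndufa5), 0.10 (Ndufa9), 0.23 (Ndufs7), -0.11 (Ndufv2), 0.10 (Atp5d) and 0.11 (Atp5o) on the log2 scale, none passing. The share follows genotype at 0 to 9 h and sets WT at 12 h apart from earlier WT, so losses with the covariate cannot be assigned to either. The cause of the changes in sign was not tested. Without the filter the median of all genes was 0.32 at 12 h in WT.

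Replicate numbers did not pair libraries: the lowest same-number correlation per comparison ran from -0.06 to 0.02. With the replicate block 7 members passed in WT at 12 h against 0 h, 6 in KO and 22 for the mean difference. With 3 libraries a group and a median standard error of 0.13, changes under about 0.25 in one member were often not detectable at this depth.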

Other observations

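Beside the 86 members, 13 further genes of the table carry a matching symbol but are not protein-coding. Ndufb1-ps, annotated as a long non-coding RNA at a bidirectional promoter, held 2662 counts over the 30 libraries and Cox6c2, a processed pseudogene, 2081, while the other 11 held from 14 to 416. Of the members, 5 lie on chromosome 9 with Nlrx1, the nearest being Atp5l, 0.64 Mb away. Atp5l was at 32.2 CPM in WT at 0 h and had a log2 difference of 0.55 ± 0.20 between KO and WT there (edgeR adjusted p = 0.118).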
